A study of Macaca mulatta with 60 samples.

Results

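The left atrium (LA) of rhesus monkey fetuses was compared between maternal bisphenol A (BPA) exposure and vehicle in early gestation (EG). The comparison was defined by the sample titles alone and held 6 of the 60 arrays of the series, from 3 control fetuses (fetuses 1, 2 and 3) and 3 BPA exposed fetuses (fetuses 4, 5 and 6), all female. Pregnant macaques of the EG groups received fruit once a day from gestation day 50 to day 100, give or take 2 days, and the fetuses were delivered by caesarian section. The fruit of the BPA group carried 400 µg of deuterated BPA per kg of body weight in ethanol, and the fruit of the controls carried ethanol alone. Other values of the series were set beside them: late gestation (LG) fetuses, exposed from day 100 to term (controls 7, 8 and 9, and BPA exposed fetuses 10, 11 and 12), the other heart chambers of the same fetuses, namely right atrium (RA), left ventricle (LV) and right ventricle (RV), and a skeletal muscle, the biceps femoris (BFM). The LG fetuses were collected at necropsy after vaginal delivery. Every array held the RNA of 1 tissue of 1 fetus, and no level was compared between tissues, since the normalization was run tissue by tissue.

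BPA is a monomer of polycarbonate plastics and epoxy resins that binds estrogen receptors weakly and crosses the placenta. The LA receives blood from the pulmonary veins and, before birth, much of the oxygenated placental blood, which passes through the foramen ovale. Its wall is made of atrial cardiomyocytes, which express alpha myosin heavy chain, together with fibroblasts, endothelium, vascular smooth muscle and blood cells, so that a change in bulk RNA cannot be assigned to 1 cell type, and fewer cells of a type cannot be told apart from less RNA per cell. The array also carried probes for small RNAs: microRNAs (miRNAs), which repress mRNAs, the U RNAs of the spliceosome, small nucleolar RNAs that guide modification of other RNAs, 7SK RNA, which restrains transcription elongation, the RNA of the signal recognition particle, 5S ribosomal RNA, and Y RNAs, which bind the Ro protein. These transcripts had fewer probes than the mRNAs, most of them exist in many near-identical copies, and the copy behind a value is therefore uncertain.

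Levels are log2 values after robust multichip averaging (RMA). The median level of an LA array lay between 6.91 and 7.02 and the 25th percentile between 4.91 and 4.97, so a transcript near 4 or 5 was dim. The tissue label was set against its markers. The MYH6 transcript, alpha myosin heavy chain, stood at 14.34 to 14.60 on the 6 arrays, at the 99.9th percentile of all transcripts, with a log2 fold change (LFC) of 0.10 (SE 0.14). It varied too little to be tested. The scanner was set so that a share of the probes saturated, which may hide a difference at so high a level. KCNA5, an atrial potassium channel, stood at 8.05 to 9.09, whereas BMP10, a growth factor of the atrial wall, was low, at 4.25 to 5.75 (10.0th to 36.9th percentile), with an LFC of −0.13 (SE 0.45). Control fetus 3 stood apart from the other arrays: its median correlation with the LA arrays was 0.958, against 0.968 to 0.973 for the other 5, and the median gap between its levels and the mean of the other fetuses of its group was 0.61, against 0.35 to 0.45. For named transcripts whose call was lost without it, that LFC or a range that holds it is given.

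Of 7903 transcripts that varied enough across the 12 LA arrays to be tested, 46 (0.582%) were called, which took an LFC of 1 or more in either direction with an unadjusted limma p no greater than 0.01. The calls were 23 higher (0.291%) and 23 lower (0.291%) in BPA exposed fetuses, with LFCs from 1.04 to 2.78 and from −2.81 to −1.06. This split moved with single fetuses: it was 33 higher and 43 lower without fetus 1, 30 and 46 without fetus 2, 17 and 36 without fetus 3, and 26 and 14 without fetus 5. No transcript reached an adjusted p of 0.05 in limma (0 of 7903, the smallest adjusted p being 0.596), and 324 had an unadjusted p of at most 0.05. The levels of the 2 groups did not overlap for 45 of the 46, the exception being MYH11, and for 9.07% of all tested transcripts. With 3 fetuses in each group, the exact two-sided permutation test of a single transcript cannot go below 0.1, the value it gave for these 45. With each EG fetus left out in turn, 9 of the 46 stayed called every time, 5 higher and 4 lower. They were IFI27L1, miR-15a, a 5S ribosomal RNA, a Y RNA and a protein-coding transcript without a description on the higher side, and the fatty acid-binding protein transcript, an unnamed miRNA, a U6 RNA and a small nucleolar RNA on the lower side. Just inside the limit on p lay HK2 (LFC 1.19, limma unadjusted p = 0.00987), a U6 RNA (−1.31, 0.0096) and a 7SK RNA (1.17, 0.00945). Just outside it lay ENSMMUT00000007859 (LFC 1.56, limma unadjusted p = 0.0101), ENSMMUT00000034902 (−1.04, 0.0102) and the small nucleolar RNA SNORD41 (−1.69, 0.0103). A further 2 transcripts passed the p with an LFC just under 1, at 0.97 and 0.998 (ENSMMUT00000039367 and ENSMMUT00000029327).

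By description, 14 of the 46 were protein-coding transcripts (7 higher, 7 lower) and 32 were small or other non-coding RNAs (16 higher, 16 lower). The latter comprised 8 miRNAs (4 higher, 4 lower), 5 U6 RNAs (0 higher, 5 lower), 3 other spliceosomal RNAs (2 higher, 1 lower), 5 Y RNAs (4 higher, 1 lower), 3 7SK RNAs (2 higher, 1 lower), 3 signal recognition particle RNAs (2 higher, 1 lower), 2 5S ribosomal RNAs (2 higher, 0 lower) and 3 small nucleolar RNAs (0 higher, 3 lower). Only transcripts listed by the study carry a description. The share of each class among all tested transcripts was thus not known, and these class counts have no background. Both group means lay under the lowest array median for 30 of the 46 (65.2%), and for 61.1% of all tested transcripts. The dimmer group's mean lay under the 25th percentile for 21 (45.7%), and for 25.8% of all tested. The 30 were 25 of the small or non-coding RNAs and 5 of the protein-coding transcripts.

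**Figure D1:**
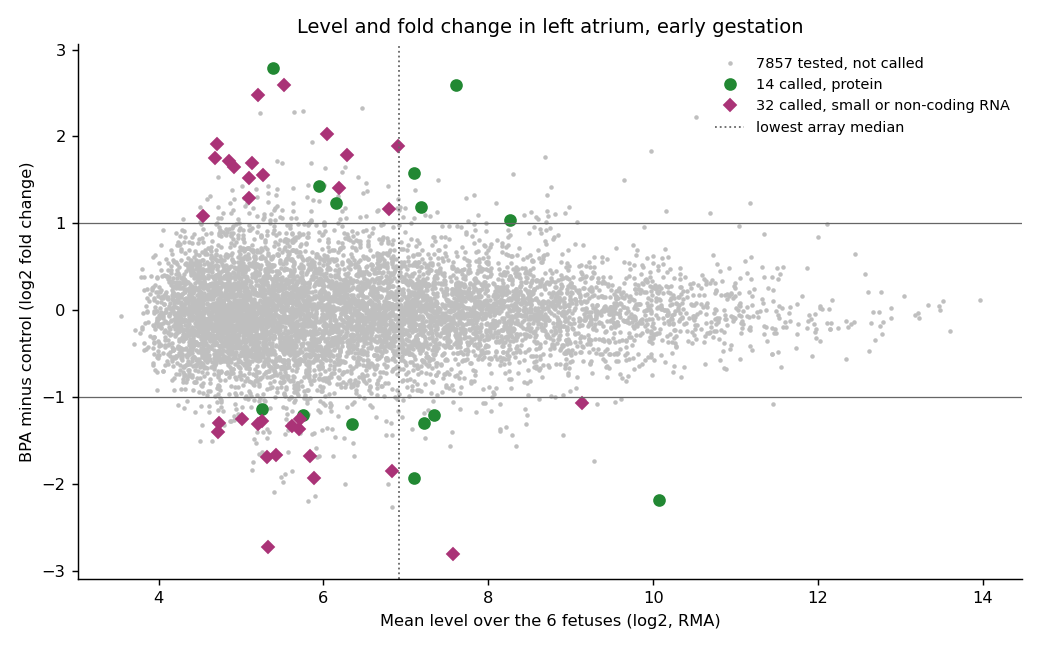
Mean log2 level over the 6 EG fetuses (x axis) against BPA minus control as log2 fold change (y axis) for 7903 tested transcripts in the left atrium. Grey points were not called, circles are the 14 called protein-coding transcripts, diamonds the 32 called small or non-coding RNAs, the lines at 1 and −1 mark the fold threshold and the dotted line marks the lowest array median (6.91). Most diamonds lie left of that line.

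The largest LFC among described proteins was that of IFI27L1 (ENSMMUT00000003381), a relative of IFI27, a small protein induced by interferon alpha. Its level was 6.00, 6.93 and 6.01 in control fetuses 1, 2 and 3, and 8.70, 8.69 and 9.35 in BPA exposed fetuses 4, 5 and 6. Every BPA exposed fetus lay above every control by more than 1 log2 unit, and the LFC was 2.60 (SE 0.54, limma unadjusted p = 0.000247, adjusted p = 0.975). It stayed between 2.38 and 2.91 with any of the 6 fetuses left out. Other interferon-responsive transcripts with a name, 2 in all, were not called: IFIT1L had an LFC of −0.41 (SE 1.06) and TRIM34 of 0.20 (SE 0.32).

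IFI27L1 was also higher in the BPA exposed EG fetuses in each of the other tissues. In RA it stood at 6.67, 7.21 and 6.03 in the controls and 8.88, 8.72 and 9.40 in the BPA exposed fetuses, with an LFC of 2.36 (SE 0.56). The LFC was 2.45 in LV (SE 0.75), 2.02 in RV (SE 0.74) and 1.39 in BFM (SE 0.37). The groups did not overlap in any of the 5 tissues. Of all 26149 transcripts, 2 had EG groups that did not overlap in the same direction in all 5 tissues, IFI27L1 with higher levels in BPA exposed fetuses and ENSMMUT00000010945 with lower ones (LFC −0.64 in LA and −0.33 to −0.85 in the others). The tissues came from the same 6 fetuses, so these are repeated readings of the same animals and not independent replicates.

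The level of IFI27L1 did not follow BPA exposure in the LG fetuses. In LA, LG control fetus 7 stood at 9.21, within the range of the EG fetuses given BPA, while control fetuses 8 and 9 stood at 6.65 and 7.10 and the LG fetuses given BPA at 6.97, 7.31 and 6.70. The same vehicle-treated fetus was high in every tissue, at 9.32 in RA, 8.49 in LV, 8.81 in RV and 8.54 in BFM, and was the highest of the 6 LG fetuses in each. The LG effect in LA was −0.66 (SE 0.54), and it differed from the EG effect by −3.26 (SE 0.77, limma adjusted p = 0.695). The EG fetuses given BPA and LG control fetus 7 held the 4 highest of the 12 values in LA, RA, LV and BFM, and in RV fetus 12 (7.09) lay above fetuses 4 and 5 (6.89 and 6.85). What these 4 fetuses had in common was not tested.

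**Figure D2:**
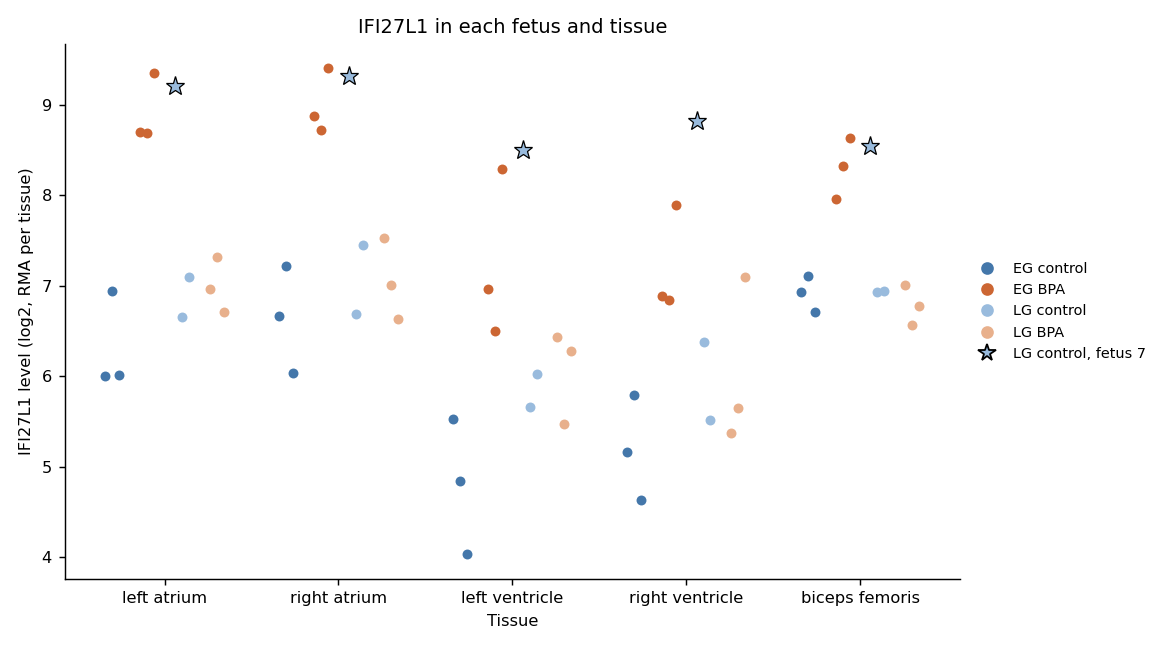
Log2 level of IFI27L1 (y axis, normalized within each tissue) in each of 12 fetuses, by tissue (x axis) and group (colours). Each point is 1 array, and the star is LG control fetus 7, which lies within the range of the EG fetuses given BPA in LA, RA and BFM and above them in LV and RV.

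The other 5 described proteins that were higher after BPA were membrane, metabolic and lysosomal proteins. KCNN2 is a small conductance potassium channel opened by calcium that contributes to atrial repolarization. Its level was 4.75, 5.40 and 5.53 in the controls and 7.36, 7.05 and 5.55 in the BPA exposed fetuses, an LFC of 1.43 (SE 0.47, limma unadjusted p = 0.0081). Fetuses 4 and 5 were high, whereas BPA exposed fetus 6 stood level with the highest control, and the call was lost without any fetus except 6, at 1.07 to 1.58. ASIC4, which belongs to the family of acid-sensing sodium channels, was at 5.54, 5.48 and 5.60 against 6.63, 6.96 and 6.73 (LFC 1.23, SE 0.35). The 6 values fell into 2 tight groups over 1 log2 unit apart, and the call was lost without fetus 2 or 5 (1.20 and 1.14). The third named ion channel of the list, KCNA5, had an LFC of 0.32 (SE 0.24) and varied too little to be tested.

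CTNND2, delta-catenin, a partner of cadherins at cell junctions best known from neurons, was at 6.99, 5.96 and 5.99 in the controls and 7.73, 8.32 and 7.63 in the BPA exposed fetuses (LFC 1.58, SE 0.45). It was not called without fetus 2, 3 or 5 (1.37 to 1.42). In RA its LFC was 1.91 (SE 0.71), where control fetus 1, at 8.40, lay among the BPA exposed fetuses (7.65 to 8.43), and it was 0.85 in LV, 0.44 in RV and −0.45 in BFM. HK2, hexokinase 2, which phosphorylates glucose at the start of glycolysis, was at 5.91, 6.86 and 6.99 against 7.49, 7.64 and 8.19 (LFC 1.19, SE 0.40), and leaving out any fetus except 3 took it out of the calls (0.85 to 1.33). It was the described protein whose LG effect in LA was nearest to its EG effect, with an LFC of 1.04 (SE 0.40, limma unadjusted p = 0.02) from the other 6 fetuses, although it was not called there. Of the other 2 transcripts of glucose and fatty acid use that carry a name, Pdk4 had an LFC of 0.02 (SE 0.48) and Gyg1, which varied too little to be tested, of 0.21 (SE 0.21). MANBA, the lysosomal beta-mannosidase, was at 7.69, 7.91 and 7.62 against 8.79, 8.59 and 8.95 (LFC 1.04, SE 0.32). Its LFC was 0.83 in RA, 0.97 in LV, 0.78 in RV and 0.17 in BFM. It was not called without fetus 1, 3, 4 or 6 (0.95 to 1.03).

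Of the 6 described proteins that were lower, 5 had their highest level in control fetus 3. The largest fall was that of a fatty acid-binding protein transcript (ENSMMUT00000015266), a cytosolic carrier of lipids whose family member the description does not give. It stood at 10.20, 10.60 and 12.69 in the controls and 9.68, 8.89 and 8.36 in the BPA exposed fetuses, an LFC of −2.19 (SE 0.56, limma unadjusted p = 0.0015). Without fetus 3 it was −1.43 and still called. MYH11, the myosin heavy chain of smooth muscle, stood at 6.87, 7.79 and 9.52 against 6.93, 5.43 and 6.04 (LFC −1.93, SE 0.60), and control fetus 1 lay below BPA exposed fetus 4 (exact two-sided permutation p = 0.2). Without fetus 3 the MYH11 LFC was −1.20 and not called, and the call was also lost without fetus 2, 5 or 6 (−1.58 to −2.06).

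SGK1, a kinase induced by glucocorticoids and mineralocorticoids that acts on ion channels, was at 7.40, 7.47 and 8.76 against 6.59, 6.09 and 7.04 (LFC −1.30, SE 0.41). TNFRSF10A, a death receptor for the ligand TRAIL, was at 6.33, 6.87 and 7.79 against 5.85, 5.57 and 5.65 (LFC −1.31, SE 0.39). The groups did not overlap for either gene, but without fetus 3 their LFCs were −0.86 and −0.91, and neither was called. SGK1 also left the calls without fetus 4 or 5 (−1.31 and −1.06), and TNFRSF10A without fetus 5 or 6 (−1.25 and −1.29). Thrb, the thyroid hormone receptor beta and the other named member of the list of steroid and thyroid signalling, had an LFC of 0.34 (SE 0.30) and did not pass the filter. C2orf70 was at 6.47, 6.04 and 6.54 in the controls against 5.11, 5.58 and 4.76 (LFC −1.20, SE 0.37). Control fetus 3 was close to the other controls here, and the call was lost without fetus 1, 3, 4 or 6, where the LFC was −1.18 or smaller in size. FCRLB, an Fc receptor-like protein of B lymphocytes, was at 5.65, 5.96 and 5.86 against 4.83, 4.41 and 4.83 (LFC −1.13, SE 0.31) and was not called without fetus 5 (−0.995).

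**Figure D3:**
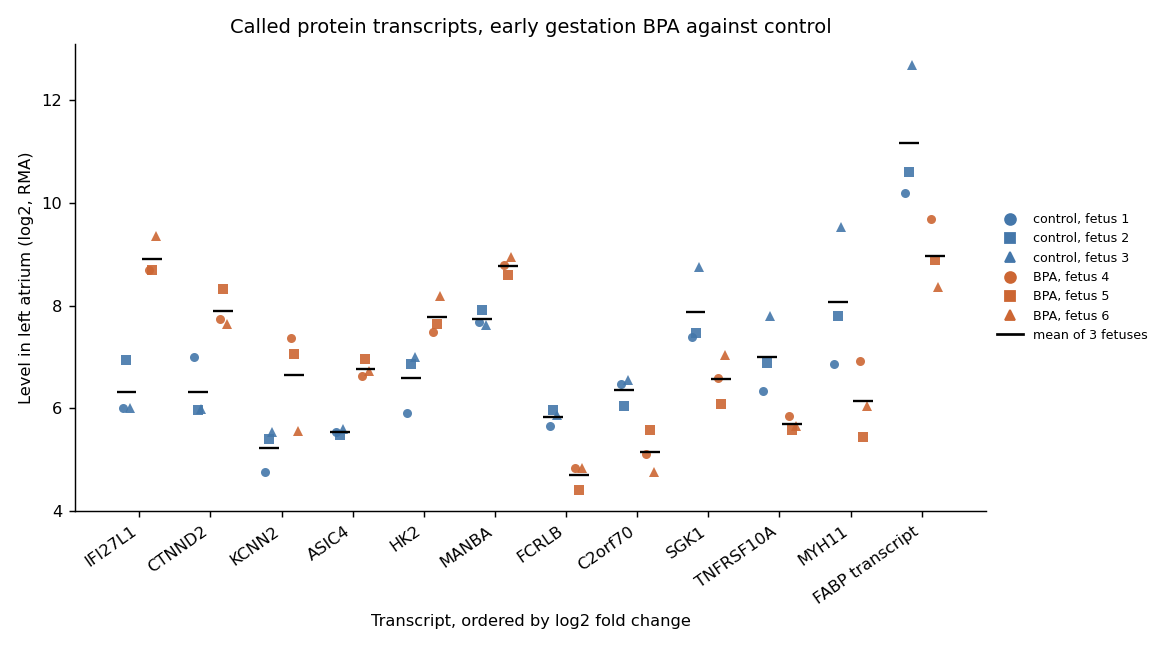
Log2 level in left atrium (y axis) of the 12 called transcripts described as proteins (x axis, by log2 fold change). Each symbol is 1 fetus, controls in blue and BPA exposed fetuses in orange, and bars are means of 3 fetuses; control fetus 3 (blue triangle) lies above the other controls for SGK1, TNFRSF10A, MYH11 and the fatty acid-binding protein transcript.

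Across all 23 lower transcripts, fetus 3 held the highest of the 6 values for 19 (82.6%), against 44.0% of the 4288 tested transcripts with a lower mean in BPA exposed fetuses. Without fetus 3, 20 of the 23 had a smaller LFC, 9 were still called, and 10 of the 23 higher transcripts were. Leaving out the highest control always shrinks a negative LFC, so the 20 largely restates the 19. Of all 46, 19 stayed called without fetus 3 and 15 without fetus 5. In the other direction, the highest value among the 23 higher transcripts was that of fetus 5 for 11, fetus 6 for 10 and fetus 4 for 2. Markers of other cells were read beside these values. None of 7 leukocyte transcripts was called by limma (0 with an unadjusted p of at most 0.05, LFCs −0.67 for CD52 to 0.51 for LCP2), and their mean level was 5.63 to 5.94 in the controls and 5.68 to 5.93 after BPA. Both erythroid transcripts went uncalled, ALAS2 at an LFC of −0.07 and KLF1 at −0.95 (SE 0.50), with a mean level of 6.81 to 7.59 in the controls and 6.27 to 7.04 after BPA. The neuronal transcript CHRNB2, at an LFC of 0.61 (SE 0.41), went uncalled as well, and TUBB3, at 0.06 (SE 0.33), varied too little to be tested. MYH11 was the only named smooth muscle marker, so its fall could not be set against others. The part of cell composition in these results was not tested. DHRS7C, an enzyme of cardiac muscle in the list of atrial markers, was higher without being called, at 10.63, 11.18 and 9.84 against 11.61, 11.20 and 11.76 (LFC 0.97, SE 0.37, limma unadjusted p = 0.0198).

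The 8 miRNA transcripts, read as the hairpin and not as the mature strand, included 6 with a name. Of the other two, ENSMMUT00000049389 has none, and the descriptions of ENSMMUT00000049665 disagree: the study gives it no name in its LA list and miR-554 in its RV list, a name that the latter also gives to ENSMMUT00000036920. Higher after BPA were miR-612, miR-15a and miR-140. miR-15a, which shares its seed with miR-16 and is known as a repressor of BCL2, was at 3.80, 3.47 and 3.98 in the controls and 5.48, 6.06 and 5.44 in the BPA exposed fetuses, an LFC of 1.91 (SE 0.48, limma unadjusted p = 0.00128). The gap between the groups was wider than the range within either, although the controls lay near the bottom of the scale, where the 1st percentile was 3.72 to 3.74. miR-612 was at 5.00, 5.09 and 4.99 against 5.77, 7.47 and 7.91 (LFC 2.02, SE 0.51), with tight controls and BPA exposed fetus 4 between them and the other two, and it was not called without fetus 6 (1.59). miR-140, best known from cartilage, was at 4.43, 4.23 and 3.32 against 4.48, 6.00 and 6.67 (LFC 1.72, SE 0.50). Its fetus 4 was at the level of the controls, and it was not called without fetus 3, 5 or 6 (1.24 to 1.58).

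Lower after BPA were miR-346, miR-7-1 and miR-25. miR-346 had the tightest controls of the lower miRNAs, at 7.74, 7.70 and 7.84 against 6.29, 5.91 and 5.51 (LFC −1.86, SE 0.52), and was not called without fetus 6 (−1.66). miR-7-1, whose hairpin lies in an intron of HNRNPK, was at 6.63, 5.14 and 6.72 against 4.94, 3.97 and 4.50 (LFC −1.69, SE 0.47). Control fetus 2 was close to BPA exposed fetus 4, and the call was lost without fetus 1, 3 or 5 (−1.42 to −1.46). miR-25, which lies with miR-93 and miR-106b in an intron of MCM7, was at 6.08, 5.81 and 6.89 against 4.80, 4.22 and 4.77 (LFC −1.66, SE 0.51), and was not called without fetus 3, 5 or 6 (−1.35 to −1.75). The 2 miRNA transcripts given here by identifier had the largest LFCs of the class. ENSMMUT00000049389 was at 9.08, 8.11 and 9.75 against 6.30, 5.55 and 6.64 (LFC −2.81, SE 0.52), the smallest p of the comparison (limma unadjusted p = 7.55e-05, adjusted p = 0.596). ENSMMUT00000049665 was at 3.95, 4.74 and 3.97 against 7.30, 7.52 and 5.62 (LFC 2.59, SE 0.76), with fetus 6 below the other BPA exposed fetuses, and was lost without fetus 1, 3, 4 or 5 (2.24 to 2.47). Of the miRNAs named elsewhere in the study, miR-205 had an LFC of −0.38 (SE 0.49) and miR-224 of −0.46 (SE 0.45), and Adam12, a metalloprotease, of −0.23 (SE 0.38).

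**Figure D4:**
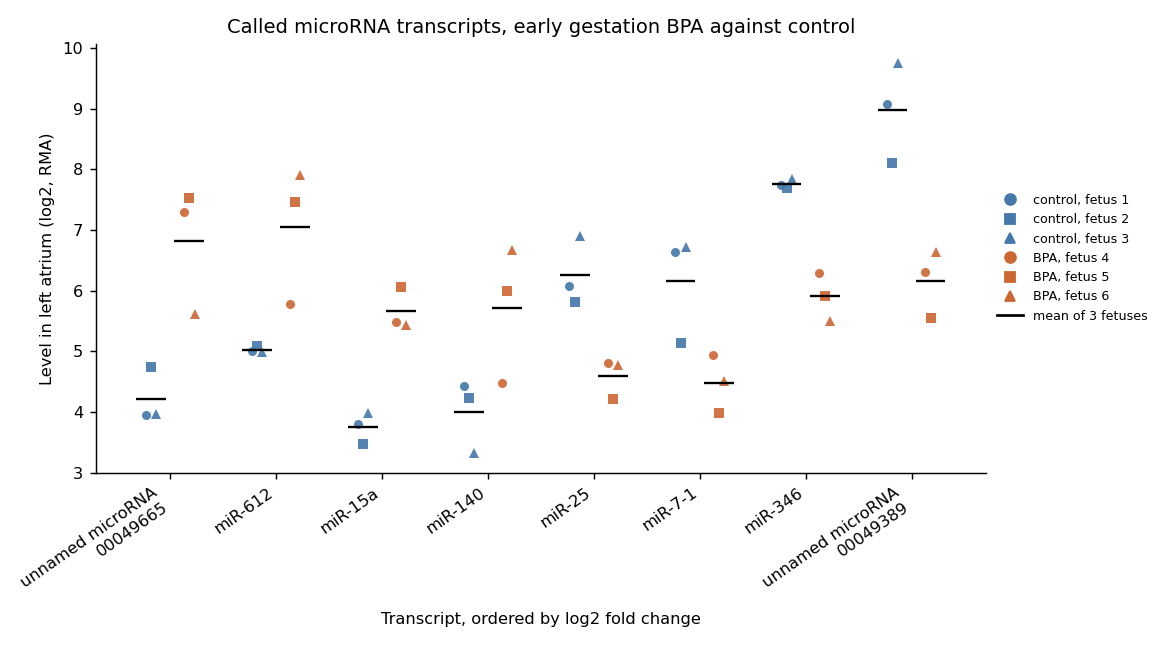
Log2 level in left atrium (y axis) of the 8 called miRNA transcripts (x axis, by log2 fold change), with controls in blue, BPA exposed fetuses in orange and bars at the means of 3 fetuses. Groups do not overlap for any of the 8, and miR-140 shows the narrowest gap, from 4.43 in control fetus 1 to 4.48 in fetus 4.

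Among the remaining RNA classes, all 5 called U6 RNAs and all 3 called small nucleolar RNAs were lower. The largest fall among U6 RNAs was at ENSMMUT00000036241, with 6.85, 5.42 and 7.80 in the controls and 3.62, 3.79 and 4.48 in the BPA exposed fetuses (LFC −2.73, SE 0.64). The controls spread over more than 2 log2 units, BPA exposed fetuses 4 and 5 lay near the 1st percentile of the array, and the LFC was −2.17 without fetus 3. Among small nucleolar RNAs it was at ENSMMUT00000037756, of the SNORD113/SNORD114 family, whose copies lie in an imprinted cluster (6.48, 6.49 and 7.60 against 4.70, 5.26 and 4.80, LFC −1.93, SE 0.49). Y RNAs went both ways, with the largest rise at ENSMMUT00000035933 (4.40, 3.92 and 3.60 against 6.38, 7.05 and 5.90, LFC 2.47, SE 0.81) and the only fall at ENSMMUT00000037508 (10.30, 9.62 and 9.08 against 8.53, 8.67 and 8.61, LFC −1.06, SE 0.35). Neither Y RNA was called throughout: the first was lost without any 1 of the 6 fetuses (2.17 to 2.74), the other without any fetus except 3 (−0.75 to −1.10).

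The 3 called 7SK RNAs included LFCs of 1.89 (ENSMMUT00000035992, 5.56, 6.30 and 6.03 against 7.91, 8.74 and 6.91) and −1.68 (ENSMMUT00000035137, 6.66, 5.93 and 7.45 against 4.59, 5.17 and 5.22), and those of the signal recognition particle 1.75 (ENSMMUT00000050648) and −1.28 (ENSMMUT00000050553). Transcripts described as the same RNA thus had LFCs of both signs. The higher 5S ribosomal RNAs had LFCs of 1.78 (ENSMMUT00000050914) and 1.65 (ENSMMUT00000035621), a U1 RNA had 1.41 (ENSMMUT00000035922) and a U5 RNA −1.40 (ENSMMUT00000050182). Without fetus 3 the calls were lost for ENSMMUT00000035137 (−1.30), ENSMMUT00000050648 (1.60), ENSMMUT00000050553 (−1.11), ENSMMUT00000050914 (1.48), ENSMMUT00000035922 (1.45) and ENSMMUT00000050182 (−1.29). The same held for the 7SK RNA ENSMMUT00000050317 (1.17, and 0.77 without fetus 3), the U6 RNA ENSMMUT00000035424 (−1.31 and −0.84) and the small nucleolar RNA ENSMMUT00000036264 (−1.29 and −1.06). The 2 protein-coding transcripts without a description had LFCs of 2.78 and −1.21. The former, ENSMMUT00000044344, had the largest rise of all, from 4.02, 4.19 and 3.78 in the controls to 6.96, 5.66 and 7.72. The latter, ENSMMUT00000004698, had its highest level in fetus 3 (7.48, 7.50 and 8.88 against 6.76, 6.42 and 7.05) and an LFC of −0.75 without it.

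Transcripts of the same classes that the study described from its other tissues and windows gave the wider view, to be read against the 0.582% of all tested transcripts that were called (0.291% in each direction). Of 57 such U6 RNAs that were tested, 1 was called, in the lower direction, with a median LFC of −0.13, and the median of all 7903 was −0.04. Of 34 Y RNAs 1 was called higher (median −0.05), of 38 miRNAs 2 were higher (median 0.06), of 13 7SK RNAs 1 was higher and 1 lower (median −0.23), and of 16 signal recognition particle RNAs 1 was higher (median 0.03). In limma, 0 of 28 small nucleolar RNAs (1 with an unadjusted p of at most 0.05, median −0.27), 0 of 17 ribosomal RNAs (1, median −0.18), 0 of 11 other spliceosomal RNAs (0, median −0.10) and 0 of 24 undescribed protein-coding transcripts (2, median 0.04) were called. Of 82 described proteins 1 was called, IFI27L1 (median −0.04).

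The LG arrays of LA, from 6 other fetuses of greater age, gave a reference for the direction of the EG differences. The mean of the LG controls lay nearer to the BPA exposed EG fetuses than to the EG controls for 26 of the 46 transcripts (56.5%), against 51.0% of all tested transcripts. The small or non-coding RNAs divided as 22 nearer to the BPA exposed fetuses and 10 nearer to the controls, and the protein-coding transcripts as 4 and 10. The same shares over all tested transcripts of each class were not known. Since the 46 were also chosen for their EG means, no contrast between the classes is drawn from this division. For miR-612, the LG arrays lay at 6.03 to 7.41 in both groups, above every EG control. CTNND2 lay at 6.74 to 8.40 in LG, a range that held all 3 BPA exposed EG fetuses and 1 of the 3 EG controls. For ASIC4 the LG arrays lay at 4.12 to 5.63 and for KCNN2 at 4.70 to 5.92, and both ranges held all 3 EG controls. The KCNN2 range also held BPA exposed fetus 6. The fatty acid-binding protein transcript was at 11.25 to 12.86 in all LG fetuses and MYH11 at 7.93 to 9.53. Control fetus 3, at 12.69 and 9.52, thus lay within the LG range for these 2 transcripts, and the other 5 EG fetuses lay below it. Whether this goes with the maturity of the tissue was not tested. Between the EG and LG fetuses, age and mode of delivery cannot be told apart.

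The effect of BPA on the same transcripts was read in the LG fetuses. Under the criteria used for EG, 86 transcripts were called in LA after LG exposure (1.09% of those tested), 3 of them among the 46. Of the 23 transcripts higher in EG, 6 were higher and 17 lower in LG, and of the 23 lower in EG, 9 were lower and 14 higher. The sign was thus the same for 15 of the 46 (32.6%), against 45.4% of all tested transcripts, and the LG effect had an unadjusted limma p of at most 0.05 for 6 of the 46. The 3 called in LG were a U6 RNA lower in both windows (ENSMMUT00000033983, −1.25 in EG and −1.54 in LG), and 2 7SK RNAs that changed in opposite directions, ENSMMUT00000050317 (1.17 and −1.45) and ENSMMUT00000035137 (−1.68 and 2.14). The levels of the last were 4.12, 4.98 and 6.31 in LG controls and 7.71, 7.30 and 6.83 in BPA exposed LG fetuses. The test of the difference, the LG effect minus the EG effect, called 97 transcripts of all tested (1.23%) and 21 of the 46, 10 of the higher and 11 of the lower ones. The EG values are part of that difference, so members chosen for large EG effects are favoured in it, and the adjusted limma p reached 0.05 for 0 of the 7903 (smallest 0.432; 489 had an unadjusted p of at most 0.05). Among described proteins it called IFI27L1 (−3.26, SE 0.77), the fatty acid-binding protein transcript (2.79, SE 0.80), MYH11 (2.74, SE 0.85), TNFRSF10A (1.80, SE 0.55), SGK1 (1.73, SE 0.58) and FCRLB (1.32, SE 0.43), and not HK2 (−0.14, SE 0.57).

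**Figure D5:**
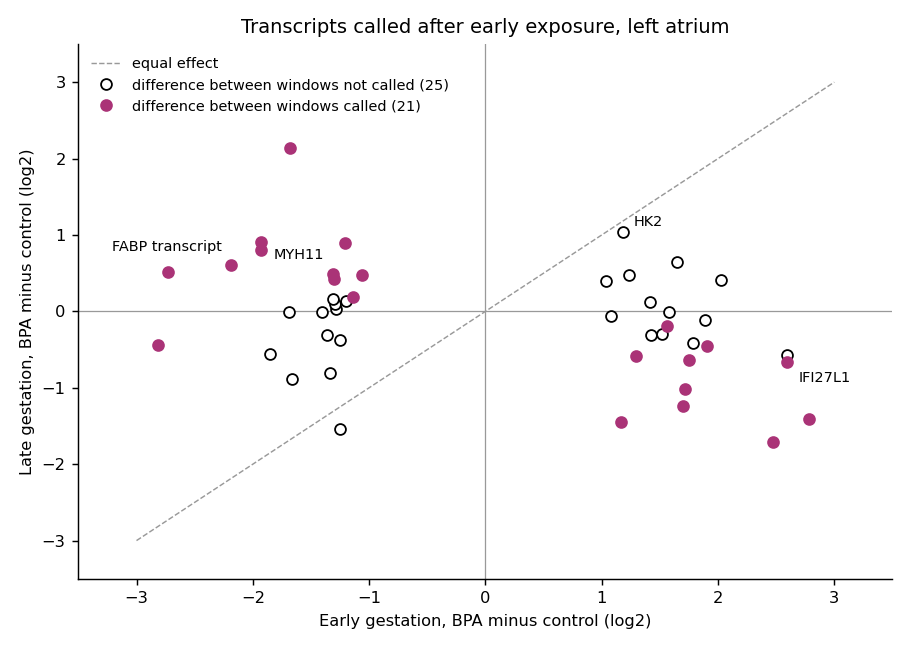
BPA minus control in left atrium after early (x axis) and late (y axis) exposure, as log2 fold change, for the 46 transcripts called in EG. Filled points are the 21 whose LG effect minus EG effect was called, open points the other 25, and the dashed line marks equal effects; HK2 lies next to it, at 1.19 and 1.04.

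RA cDNA was amplified in the same way as LA cDNA and came from the same fetuses. In RA, 41 transcripts were called in EG (0.439% of 9329), and IFI27L1 was the only one of the 46 among them, 43 of which were tested in RA. The list that the study itself gives for RA in EG is shorter than these 41, and the reason was not examined. The 46 had the same sign in RA for 29 (63%), 14 of the higher and 15 of the lower transcripts, against 58% of all transcripts tested in LA. The difference LA effect minus RA effect called 29 of the tested transcripts (0.367%) and 6 of the 46, with 0 at an adjusted p of 0.05 in limma (176 with an unadjusted p of at most 0.05). The LA values that chose the 46 are 1 side of this difference, which favours them in it. They were ENSMMUT00000044344 (3.76, SE 0.99), the 5S ribosomal RNA ENSMMUT00000050914 (2.45, SE 0.82), FCRLB (−1.40, SE 0.46), the SNORA62/SNORA6 RNA ENSMMUT00000036264 (−2.08, SE 0.72), the U6 RNA ENSMMUT00000035424 (−2.83, SE 0.82) and miR-7-1 (−2.58, SE 0.66). In RA miR-7-1 had an LFC of 0.88, FCRLB of 0.27 and ENSMMUT00000044344 of −0.98. With the fetus as a replicate block, which uses the pairing of the atria, 49 transcripts and 10 of the 46 were called: ENSMMUT00000036264 dropped out, and miR-15a (2.21, SE 0.68), ASIC4 (1.21, SE 0.38), SGK1 (−1.34, SE 0.43), the Y RNA ENSMMUT00000037508 and the U6 RNA ENSMMUT00000036241 came in. SGK1 in RA stood at 7.83, 7.12 and 7.49 in the controls and 7.56, 7.29 and 7.70 in the BPA exposed fetuses (LFC 0.04).

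In the remaining tissues 163 transcripts were called in LV (0.925% of 17628), 74 in RV (0.615% of 12031) and 23 in BFM (0.267% of 8609). Of the 46, 44 were tested in LV, 38 in RV and 31 in BFM. Among these, the LV calls held IFI27L1, the RV calls held miR-140, which was lower there (−1.63), and the miRNA ENSMMUT00000049665 (2.04), and the BFM calls held IFI27L1 and the unnamed miRNA ENSMMUT00000049389 (−1.40). The latter was higher in RV (2.18), where its EG groups did not overlap. The sign matched that of LA for 28 of the 46 in LV (60.9%), 25 in RV (54.3%) and 24 in BFM (52.2%), against 54.3%, 51% and 52.1% of all transcripts tested in LA. It was the same in all 5 tissues for 6 (13%, against 10.6% of all): IFI27L1, ASIC4, MANBA, MYH11, the fatty acid-binding protein transcript and the U5 RNA ENSMMUT00000050182. For ASIC4, MYH11 and the fatty acid-binding protein transcript the LFCs outside LA lay between −0.86 and 0.24. None was called, but ASIC4 in RA, RV and BFM and MYH11 in BFM varied too little to be tested.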

How the data were processed

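Levels came from 1 custom NimbleGen rhesus array per tissue and fetus, designed from Ensembl transcripts of the Mmul_1 build and labelled with Cy5. The deposited values are log2 levels per transcript: the authors extracted probe intensities with NimbleScan, then background corrected, quantile normalized within each tissue and summarized by median polish (RMA). Atrial cDNA was amplified by PCR before labelling and ventricular cDNA was not, which limits comparison with the ventricles; the preparation of BFM cDNA is not given in the sources used here. The 12 LA arrays shared 1 slide.

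Group means were fitted in limma 3.58.1 (R 4.3.3) to all 12 LA arrays, with the criteria of the study's methods: an interquartile range of at least 0.5 across the arrays (7903 of 26149 transcripts), an LFC of 1 or more in either direction, and an unadjusted p no greater than 0.01. Benjamini-Hochberg adjusted p-values ran over all tested transcripts. SE is that of the LFC in this fit. For transcripts that did not pass the filter, and for LFCs within the other tissues, it comes from the same model fitted without the filter. LG minus EG and LA minus RA effects were contrasts with the same criteria, the latter over 24 arrays. Numbers in the labels mark the same fetus in each tissue, and deviations from the group means in LA and RA correlated with a median of 0.23 within a fetus (0.09 at the lowest, above 0.1 in 11 of 12) and −0.02 between fetuses, so fetuses were also fitted as a block. For levels per fetus the number of arrays, 3 in each group, limits the precision. The scripts were tested on simulated data. Figures were drawn with matplotlib 3.10.9.

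Names come from the study's transcript descriptions, written here as gene symbols; a transcript without one keeps its identifier. The identifier of ENSMMUT00000004698 was 1 digit short in the text of these descriptions and was matched to the only called transcript it could be. The text names all called proteins and miRNAs with a description, the largest rise and fall in each other RNA class, the 3 transcripts nearest to each side of the limit on p, 7 genes the study lists and the named members of the lists. The transcripts and lists were chosen with earlier results of these data known. One listed transcript is not reported here.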

Additional observations from a re-analysis of the deposited data

Results flagged for a closer look

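The effect of BPA in LA differed between the exposure windows, by the limma contrast at an unadjusted p, for 21 of the 46 transcripts and 97 of all 7903 tested (1.23%), and no adjusted p reached 0.05. The EG values that chose the 46 are part of the difference. LG minus EG came to −3.26 for IFI27L1, −2.36 for miR-15a and −2.73 for miR-140. It was 2.79 for the fatty acid-binding protein transcript, 2.74 for MYH11, 1.80 for TNFRSF10A, 1.73 for SGK1 and 1.32 for FCRLB. Among 7SK RNAs it was −2.62 (ENSMMUT00000050317) and 3.82 (ENSMMUT00000035137), and among Y RNAs −4.19 (ENSMMUT00000035933), −2.94 (ENSMMUT00000050165), −1.76 (ENSMMUT00000034520) and 1.54 (ENSMMUT00000037508). It was −2.39 and −1.88 for signal recognition particle RNAs (ENSMMUT00000050648 and ENSMMUT00000050425), 2.85 for the SNORD113/SNORD114 RNA (ENSMMUT00000037756), 3.25 for a U6 RNA (ENSMMUT00000036241) and 2.37 for an unnamed miRNA (ENSMMUT00000049389). The protein-coding transcripts without a description had −4.19 (ENSMMUT00000044344) and 2.10 (ENSMMUT00000004698). With each of the 12 fetuses left out in turn, 10 of the 21 stayed called, IFI27L1 (−3.75 to −2.48) and miR-140 (−3.35 to −2.26) among them, whereas MYH11 was lost without fetus 3, 5, 6, 8, 9, 10 or 12 (2.00 to 3.33 over all 12), SGK1 without fetus 3, 4, 5, 7, 8, 9, 10 or 12 (1.29 to 1.97) and FCRLB without any but fetus 9 or 10 (1.18 to 1.43).

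The effect differed between the atria for 6 of the 46 and 29 of all tested (0.367%), with the same limits, and the LA values that chose the 46 are part of this difference too. The LA effect minus the RA effect was 3.76 for ENSMMUT00000044344, 2.45 for the 5S ribosomal RNA ENSMMUT00000050914, −1.40 for FCRLB, −2.08 for the SNORA62/SNORA6 RNA ENSMMUT00000036264, −2.83 for the U6 RNA ENSMMUT00000035424 and −2.58 for miR-7-1. With each EG fetus left out, miR-7-1 alone stayed called every time (−3.02 to −2.13). ENSMMUT00000044344 was lost without fetus 6 (3.03), ENSMMUT00000035424 without fetus 3 or 4 (−2.02 and −2.17), and the other 3 without all but 1 of the fetuses.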

How the results depend on the processing

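The 46 LA EG calls became 14 with an interquartile range of at least 1, 72 when only the EG arrays were fitted (SGK1, MYH11, HK2 and KCNN2 among those lost), 86 with array weights, 0 at a limma adjusted p of 0.05 (324 had an unadjusted p of at most 0.05) and 40 to 76 with each EG fetus left out (76 without fetus 1 or without fetus 2, and 53 without fetus 3, 19 of them among the 46). No LFC of the 46 changed direction under any alternative that gave it a value, which was so for 25 of them with the stricter interquartile range and for 39 with dim transcripts removed. That outcome was largely fixed in advance. The filters and the prior leave the LFC as it is, and groups that do not overlap, as for 45 of the 46, keep their direction without any 1 fetus. Of the 46, 37 remained called in the EG arrays alone, 39 with array weights, 40 with a trended and robust prior, 43 with median centring or quantile normalization, 44 without the filter on variation, and 15 to 28 with a fetus left out, the fewest without fetus 5. The 97 LG minus EG calls became 212 without the filter, 0 at an adjusted p of 0.05 and 72 to 133 with a fetus left out. The 29 LA minus RA calls became 49 with the fetus as a replicate block, the paired fit, 76 without the filter, 0 at an adjusted p of 0.05 and 15 to 44 with a fetus left out (44 without fetus 2, 15 without fetus 3 and 17 without fetus 5). The cause of these shifts was not tested. Of the 49 calls with the block 22 were among the 29, and within the 46 it changed the calls named with the atrial comparison. The median SE of an LFC was 0.41 over all tested transcripts and 0.45 over the 46, with 3 fetuses in each group.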
